A study of Mus musculus with 15 samples.

Results

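The genes described here are 36 genes of macrophages and other myeloid cells, picked by symbol from a table of 19602 genes measured in whole mouse kidney. All 36 were found in the table, and 33 had enough reads to be tested, that is, 3 or more libraries with a normalised count (reads divided by the library's size factor) of 10 or above. Cd163, Cd86 and Cd48 did not pass. Of the 33, 10 (Ms4a6c, Cd84, Itgam, Cd14, Clec7a, Trem2, Gpnmb, Ncf4, Itgb2 and Cd53) reached 10 in fewer than 3 vehicle libraries and so passed through folic acid libraries, which can raise the share of higher members among those tested. Mice were 6 to 8 weeks old and formed 4 groups, namely 4 libraries of G3 kidneys after folic acid, 4 of G3 kidneys after vehicle, 3 of WT kidneys after folic acid and 4 of WT kidneys after vehicle. G3 stands for Tert-/- mice, which lack telomerase reverse transcriptase, in their generation 3 of breeding without the enzyme. WT stands for Tert+/+ mice. Folic acid was injected once into the peritoneum at 125 mg/kg, a treatment that injures kidney tubules, and the vehicle was 0.3 M NaHCO3 (200 ul). Kidneys were perfused with cold saline and taken whole on day 14, with no sorting of cells. Mice of both sexes were used. Each kidney gave 1 library of RNA 3' ends.

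Macrophages are phagocytes that live in every organ and are joined after injury by monocytes from the blood. In the kidney, resident macrophages are known for the fractalkine receptor CX3CR1, and recruited monocytes for the chemokine receptor CCR2, which calls them out of the bone marrow. The transcription factor PU.1, product of Spi1, binds purine-rich sites in the promoters of many myeloid genes. Macrophages recognise debris through receptors such as TREM2, which signal through the adaptor TYROBP, digest it with lysosomal enzymes, and make superoxide with the NADPH oxidase of the phagocyte membrane. After tubular injury they take part both in clearance and in scarring.

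Each library held 5014684 to 6609307 reads in genes (median 6091019), and 1 read was worth 0.895 to 1.13 normalised counts. A member with a normalised count of about 10 therefore rests on about 10 reads. The labels describe the libraries as separate kidneys, so p-values measure the spread between these libraries, and replicate numbers were given in order of accession. WT folic acid 1 stood apart: 23.0% of its reads fell in Gm42418, a predicted gene, against 4.85% to 8.15% in the other 14 libraries. The labelled sex went against Xist and Y-linked RNA in 10 of the 15 libraries, and 2 libraries, G3 folic acid 4 and WT vehicle 2, held both kinds of RNA. The share of Y-linked RNA, relative to the highest library, was 0.0173 to 0.800 in G3 folic acid, 0.00113 to 0.00873 in G3 vehicle, 0.0110 to 0.0340 in WT folic acid and 0.327 to 1 in WT vehicle, so sex and group cannot be fully told apart. Whether libraries or labels were exchanged, which would also change the groups compared, was not tested. Reads came from transcript 3' ends, so the Tert count does not check the genotype.

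The members lie on many chromosomes, and a few are neighbours. Itgam spans chr7:128062640-128118491 and Itgax chr7:128129547-128150657, both on the plus strand. Ms4a7 (chr19:11321039-11336146, minus strand) and Ms4a6c (chr19:11469366-11482192, plus strand) belong to 1 gene cluster, and Aif1 (chr17:35170991-35176068) and Lst1 (chr17:35185095-35188439) lie close together on the minus strand (GRCm38, GENCODE M21). The last 1000 bases of Ms4a6c, Cx3cr1, Coro1a and Cd52 overlap a gene on the opposite strand. The kit keeps strand and the labels' protocol names the stranded setting of the counter. Lyz2 has a near copy, Lyz1, and Ms4a6c has paralogs, so reads could be split between them.

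Promoters of the members were searched for the purine-rich core GAGGAA that PU.1 and other ETS factors bind. The search covered both strands of the 250 bases before the start site. RefSeq promoter sequences (GRCm38.p6) matched 27 of the 36 members. The core was present in 10 of these 27 (37.0%), against 25.9% of 27025 genes with a window of the same length. The longer site GAGGAAGT, which contains the core, was in 0 of 27 members and 2.79% of genes. The AP-1 site TGANTCA was in 6 of 27 (22.2%), against 7.82% of genes, and the C/EBP site TTNNGCAA in 1 of 27 (3.70%), against 10.8% of genes. A match of letters is a description and not a measured binding site. The following windows of 60 bases, written 5' to 3' on the strand of the gene with the core in capitals, are those of Itgam, the member that passed the test described below, of 3 phagocyte genes described below, and of the common leukocyte antigen gene.
Itgam (chr7:128062530-128062589, plus strand): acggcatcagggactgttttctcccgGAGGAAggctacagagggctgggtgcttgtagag
Ctss (chr3:95526596-95526655, plus strand): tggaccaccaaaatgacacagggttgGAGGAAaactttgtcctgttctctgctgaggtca
Clec7a (chr6:129472842-129472901, minus strand): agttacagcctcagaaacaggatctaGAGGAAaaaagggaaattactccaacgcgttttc
Cd68 (chr11:69666361-69666420, minus strand): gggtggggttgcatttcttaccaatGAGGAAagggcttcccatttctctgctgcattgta
Ptprc (chr1:138175430-138175489, minus strand): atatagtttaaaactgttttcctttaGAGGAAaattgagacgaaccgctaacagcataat
In Itgam the printed core began 84 bases before the start site, in Clec7a 96, in Ptprc 158, in Ctss 164 and in Cd68 225 bases before it. Itgam held the core once more on the opposite strand, 15 bases before the start site, outside the window shown.

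Macrophage and myeloid RNA was highest in 4 of the 7 folic acid libraries. G3 folic acid 3 lay lower and exceeded all G3 vehicle libraries for 15 of the 36 members. G3 folic acid 1, 2 and 4 and WT folic acid 1 each ranked among the 4 highest libraries for 33 or 34 of the 36 members, and no other library did so for more than 2. The median member stood log2 2.27, 1.99, 0.55 and 1.86 above the WT vehicle mean in G3 folic acid 1 to 4, and 0.40, 0.01, -0.08 and 0.16 in G3 vehicle 1 to 4. In WT folic acid 1 to 3 it stood at log2 2.42, 0.08 and -0.10, and in WT vehicle 1 to 4 at 0.02, -0.19, 0.06 and 0.08. G3 folic acid 3 was the lowest of its group for 33 of the 36 members, against 27.4% of all genes tested. WT folic acid 1 exceeded both other WT folic acid libraries for 33 of the 36, against 41.0% of all genes tested. WT folic acid 2 and 3 each lay within the range of the WT vehicle libraries for 20 of the 36 members. The share of all genes was not counted for this range, for the 4 highest libraries or for G3 folic acid 3 against G3 vehicle. These counts describe single libraries and are not read as particular to the members. In bulk kidney RNA, a change in the number of myeloid cells and a change in RNA per cell cannot be told apart.

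**Figure D1:**
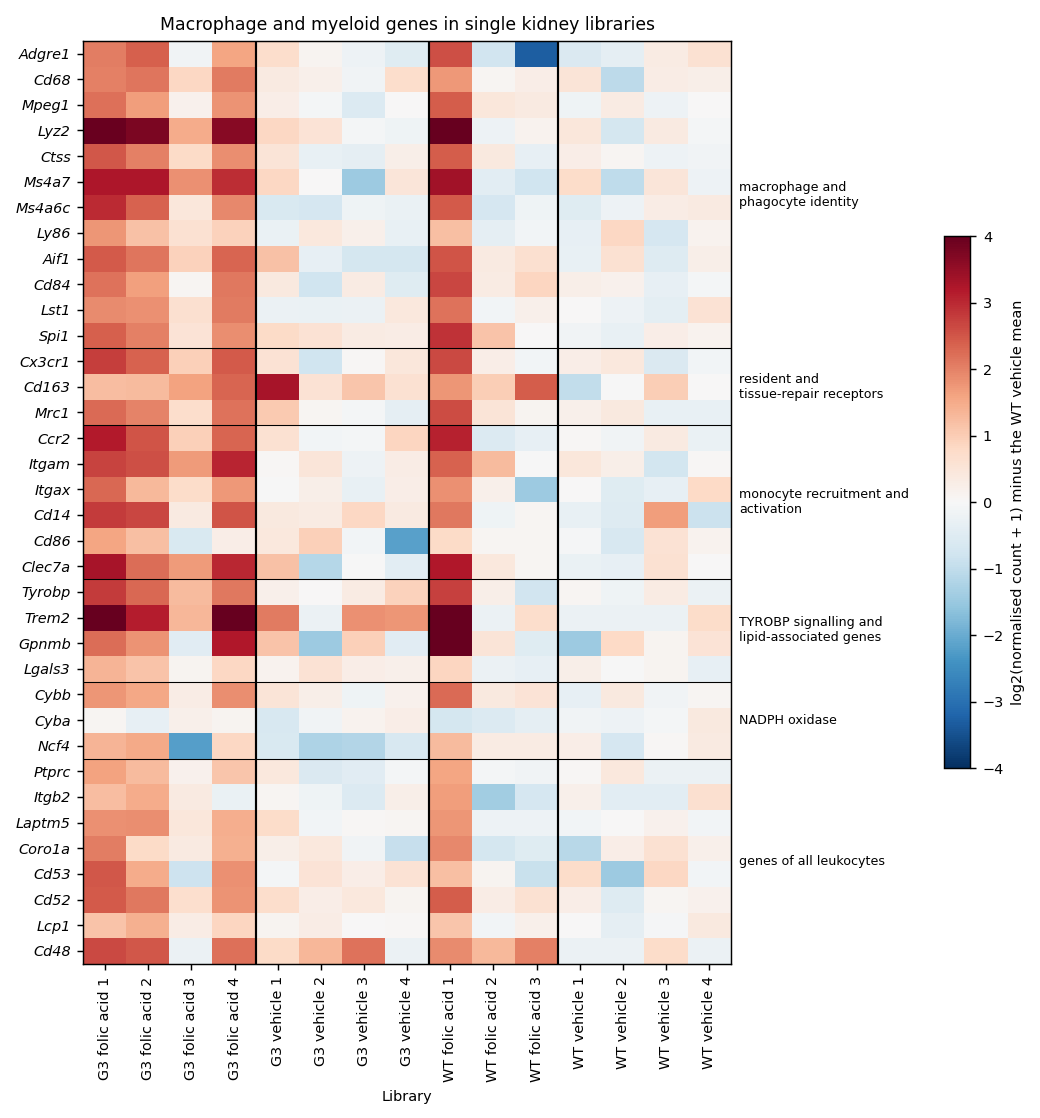
Each row is 1 of the 36 members and each column 1 library, with G3 folic acid at the left and WT vehicle at the right. Colour gives log2(normalised count + 1) minus the WT vehicle mean of that gene, and lines divide the groups and the roles. G3 folic acid 1, 2 and 4 and WT folic acid 1 are red in nearly every row, and G3 folic acid 3 is much paler.

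After folic acid, G3 kidneys had a higher mean log2 level than G3 vehicle kidneys for each of the 33 tested members, with a median log2 difference of 1.54 over them against -0.01 over all genes tested. Itgam, the alpha chain of the Mac-1 integrin of monocytes and macrophages, passed the test across all genes and rose 5.10-fold. It was the only member called at a limma adjusted p under 0.05, 1 of 33 members against 0.157% of all genes tested. Itgam is 1 of the 10 members that passed the filter through folic acid libraries, and its G3 vehicle counts were only 3.25 to 5.86. The largest differences that did not pass were those of Lyz2 (log2 2.92), Ms4a7 (2.84) and Clec7a (2.66), and the smallest were those of Lgals3 (0.55) and Cyba (0.10). At an unadjusted p under 0.05, 26 of 33 members were higher, against 7.47% of genes. For 14 members (Cd68, Lyz2, Ctss, Ms4a7, Ms4a6c, Ly86, Lst1, Cx3cr1, Ccr2, Itgam, Itgax, Clec7a, Tyrobp and Lcp1) every G3 folic acid library exceeded every G3 vehicle library, against 3.98% of genes.
The count of calls depended on libraries outside the comparison, because all groups share 1 estimate of spread. Without WT folic acid 1 the differences were the same and 19 of 33 members were called, against 1.77% of genes, and DESeq2 called 19, against 1.73% of genes, while edgeR called 1. Without G3 folic acid 3, 17 were called, where 167 of all genes were called. With the share of Y-linked RNA or the labelled sex as a term 0 were called, where 9 and 12 of all genes were called. Without the 2 libraries of mixed sex RNA 0 were called, where 11 of all genes were called, and the member median was log2 1.40.

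In WT kidneys the folic acid libraries differed among themselves, and no member passed the test. The median log2 difference was 0.73, against 0.01 over all genes, and 0.0096 without WT folic acid 1, when 17 of 33 members were above 0. Of 33 members, 0 were called by limma, against 2.17% of genes called higher, 0 by edgeR and 9 by DESeq2 (4.22% of genes). The DESeq2 calls were Mpeg1, Lyz2, Cd84, Spi1, Mrc1, Clec7a, Trem2, Cybb and Cd52. At an unadjusted p under 0.05, 8 members were higher (11.4% of genes) and 1, Cyba, was lower. Every WT folic acid library exceeded every WT vehicle library for Mpeg1, Cd84, Cybb and Cd52, 4 of 33 against 9.31% of genes. For Cyba every WT folic acid library lay below every WT vehicle library.

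**Figure D2:**
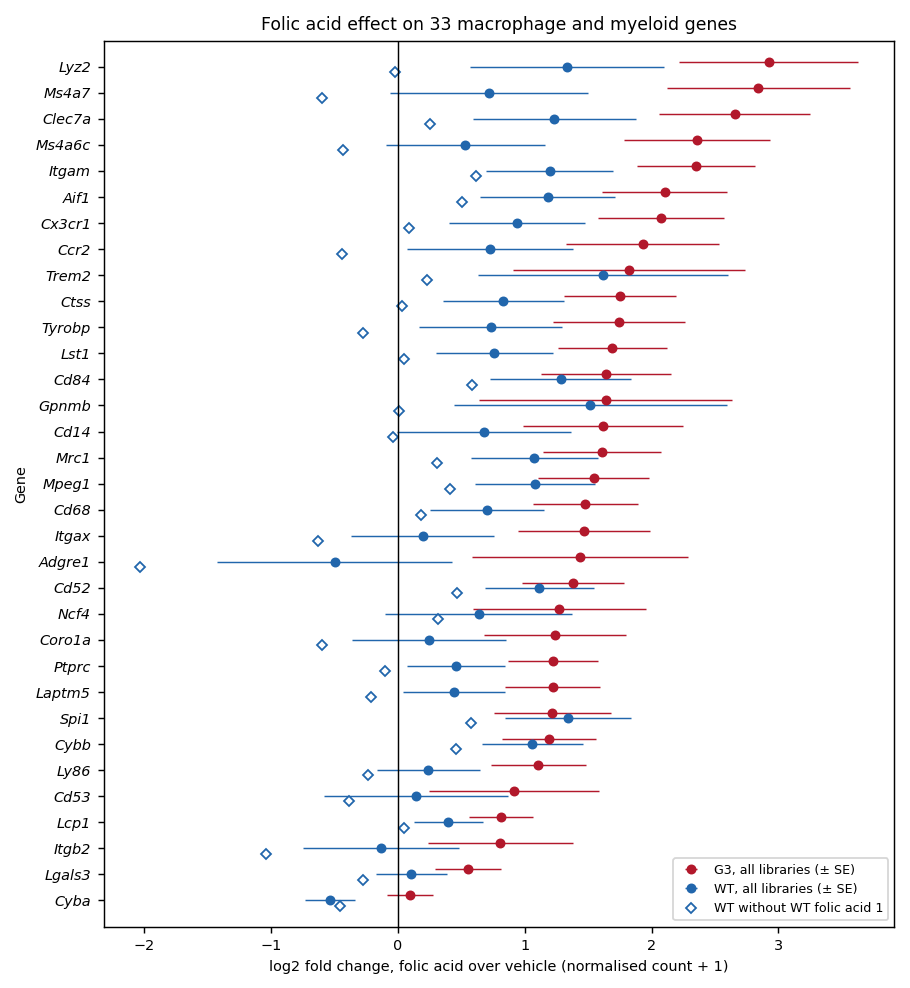
The log2 fold change of folic acid over vehicle is shown for the 33 tested members, in G3 (red) and WT (blue) with all libraries and standard errors, and in WT without WT folic acid 1 (open diamonds). G3 points lie right of 0 in all rows, and the open diamonds scatter around 0 with a median of 0.0096.

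Between genotypes after folic acid, 32 of 33 members had a higher estimate in G3 than in WT, with a median log2 difference of 0.90, but no difference passed the test. The largest were those of Ms4a7 (log2 2.09), Adgre1 (1.97) and Lyz2 (1.88). Limma called 0 of 33, against 0.717% of genes, and edgeR and DESeq2 called 0 each. At an unadjusted p under 0.05, 14 were higher, against 9.57% of genes. Only Cyba had every G3 folic acid library above every WT folic acid library, 1 of 33 against 7.84% of genes.
Leaving out WT folic acid 1 gave 14 calls, against 1.86% of genes, and a median of 1.62. Those called were Adgre1, Lyz2, Ctss, Ms4a7, Ms4a6c, Lst1, Cx3cr1, Ccr2, Itgam, Itgax, Clec7a, Tyrobp, Lgals3 and Laptm5.

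After vehicle alone the genotypes were not told apart in these genes. The median log2 difference, G3 minus WT, was 0.05, with 21 members above 0 and 12 below. Of 33 members, 0 were called by limma (0.867% of genes called higher), 0 by edgeR and 0 by DESeq2, and 0 reached an unadjusted p under 0.05, against 7.95% of genes. Only Spi1 had every G3 vehicle library above every WT vehicle library, 1 of 33 against 4.29% of genes, and the nearest libraries were 23.05 and 23.03. The estimates had standard errors of log2 0.18 (Cyba) to 0.9997 (Gpnmb), so differences of that size were not detectable with these libraries.

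The folic acid effect in G3 minus that in WT was above 0 for 32 of 33 members, with a median of log2 0.87, and none of these differences of effects passed the test. Limma called 0 of 33, against 2.16% of genes, and 2 members, Ms4a6c and Cyba, had an unadjusted p under 0.05 (8.54% of genes). EdgeR and DESeq2 called 0 each. Without WT folic acid 1, limma called 7 (Adgre1, Lyz2, Ctss, Ms4a7, Ms4a6c, Ccr2 and Tyrobp), against 2.07% of genes, with a median of 1.60.

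Of the genes of macrophage and phagocyte identity, all 12 were tested. Adgre1 encodes F4/80, the surface protein by which mouse macrophages are usually recognised. Its normalised counts were 39.9, 50.7, 7.99 and 28.6 in G3 folic acid 1 to 4, against 15.3, 9.77, 7.57 and 6.01 in G3 vehicle 1 to 4. In WT they were 57.9, 4.799 and 0 in WT folic acid 1 to 3, against 5.65, 6.64, 11.5 and 13.99 in WT vehicle 1 to 4. The third G3 folic acid library lay among the G3 vehicle libraries, WT folic acid 1 topped the WT vehicle libraries, while both remaining WT folic acid libraries lay below them. The difference was log2 1.44 in G3 (SE 0.85, limma adjusted p = 0.494) and -0.50 in WT (SE 0.92, adjusted p = 0.794), where WT folic acid 3 held no read.
Cd68, a lysosomal membrane glycoprotein of phagocytes, had 46.3, 50.7, 19.98 and 49.2 in G3 folic acid 1 to 4, against 14.2, 12.7, 9.74 and 18.04 in G3 vehicle 1 to 4. In WT its counts were 38.6, 11.5 and 13.3 in WT folic acid 1 to 3, against 15.8, 4.74, 13.4 and 12.99 in WT vehicle 1 to 4. Folic acid and vehicle libraries of G3 did not overlap, and of the WT folic acid libraries only the first left the vehicle range. Cd68 averaged 2.79-fold higher after folic acid in G3 (log2 1.48, SE 0.42, limma adjusted p = 0.111).
Lyz2 encodes the lysozyme of macrophages and neutrophils, and its counts were 882, 773, 159 and 722 in G3 folic acid 1 to 4, against 102, 83.04, 53.01 and 50.1 in G3 vehicle 1 to 4. They were 945, 48.95 and 62.9 in WT folic acid 1 to 3, against 76.9, 34.1, 72.9 and 52.9 in WT vehicle 1 to 4. Every G3 folic acid library stood above the vehicle libraries, the third by the least, and WT folic acid 1 was the highest of all 15 while WT folic acid 2 and 3 lay in the vehicle range. Lyz2 differed 7.59-fold in G3 (log2 2.92, SE 0.71, limma adjusted p = 0.0737) and by log2 1.33 in WT (adjusted p = 0.31), or -0.02 without WT folic acid 1.

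Ctss, cathepsin S, a lysosomal protease that prepares antigens for presentation, had 741, 535, 223 and 474 in G3 folic acid 1 to 4, against 189, 106, 103 and 155 in G3 vehicle 1 to 4. The WT values were 707, 172 and 105 in WT folic acid 1 to 3, against 157, 138, 114 and 119 in WT vehicle 1 to 4. The G3 groups did not overlap. The first and second WT folic acid libraries lay above the WT vehicle group and the third below it. Ctss averaged 3.36-fold higher after folic acid in G3 (log2 1.75, SE 0.44, limma adjusted p = 0.0784).
Ms4a7, a membrane protein of the MS4A family found on macrophages, had 107, 107, 39.96 and 88.6 in G3 folic acid 1 to 4, against 19.3, 10.7, 3.25 and 15.03 in G3 vehicle 1 to 4. Counts of Ms4a7 were 117, 7.68 and 5.72 in WT folic acid 1 to 3, against 18.1, 4.74, 15.4 and 8.99 in WT vehicle 1 to 4. Folic acid and vehicle libraries of G3 did not overlap, and WT folic acid 2 and 3 stayed in the vehicle range. Ms4a7 averaged 7.17-fold higher after folic acid in G3 (log2 2.84, SE 0.72, limma adjusted p = 0.0800). Without WT folic acid 1 the WT estimate was log2 -0.60.
Ms4a6c, of the same family and known from monocytes, had 84.4, 54.5, 13.99 and 40.3 in G3 folic acid 1 to 4, against 6.102, 5.86, 8.66 and 8.02 in G3 vehicle 1 to 4. WT kidneys had 58.99, 5.76 and 8.58 in WT folic acid 1 to 3, against 6.79, 8.53, 12.5 and 12.99 in WT vehicle 1 to 4. Again the G3 groups were apart, while WT folic acid 2 lay below the vehicle range and WT folic acid 3 inside it. The difference in G3 was 5.13-fold (log2 2.36, SE 0.58, limma adjusted p = 0.0744).
Spi1, the gene of PU.1, had 103, 78.9, 27.97 and 70.7 in G3 folic acid 1 to 4, against 32.5, 28.3, 23.8 and 23.1 in G3 vehicle 1 to 4. Its WT counts were 145, 42.2 and 19.1 in WT folic acid 1 to 3, against 16.96, 15.2, 23.03 and 20.98 in WT vehicle 1 to 4. G3 folic acid 3 lay within the G3 vehicle range, and WT folic acid 1 and 2 above the WT vehicle range. Spi1 was the single one of the 12 with a larger estimate in WT (log2 1.34, SE 0.50, limma adjusted p = 0.117) than in G3 (1.22, SE 0.46, adjusted p = 0.233), and the difference of effects was -0.13 (adjusted p = 0.953).
The other 5 of the group are Mpeg1 (perforin-2, a pore protein of phagosomes), Ly86 (MD-1, partner of a Toll-like receptor homologue), Aif1 (IBA1, an actin-binding protein of macrophages), Cd84 (a self-binding receptor of the SLAM family) and Lst1 (a small membrane protein of leukocytes). Their G3 differences ran from log2 1.11 (Ly86, limma adjusted p = 0.183) to 2.10 (Aif1, adjusted p = 0.0734). Aif1 had 35.96 to 104 in G3 folic acid libraries, against 10.8 to 42.7 in G3 vehicle libraries, and Lst1 had 24.98 to 68.9, against 12.7 to 21.05. Mpeg1 and Cd84 differed by log2 1.08 and 1.28 in WT (adjusted p = 0.18 and 0.173), and in neither gene did the WT groups overlap.

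**Figure D3:**
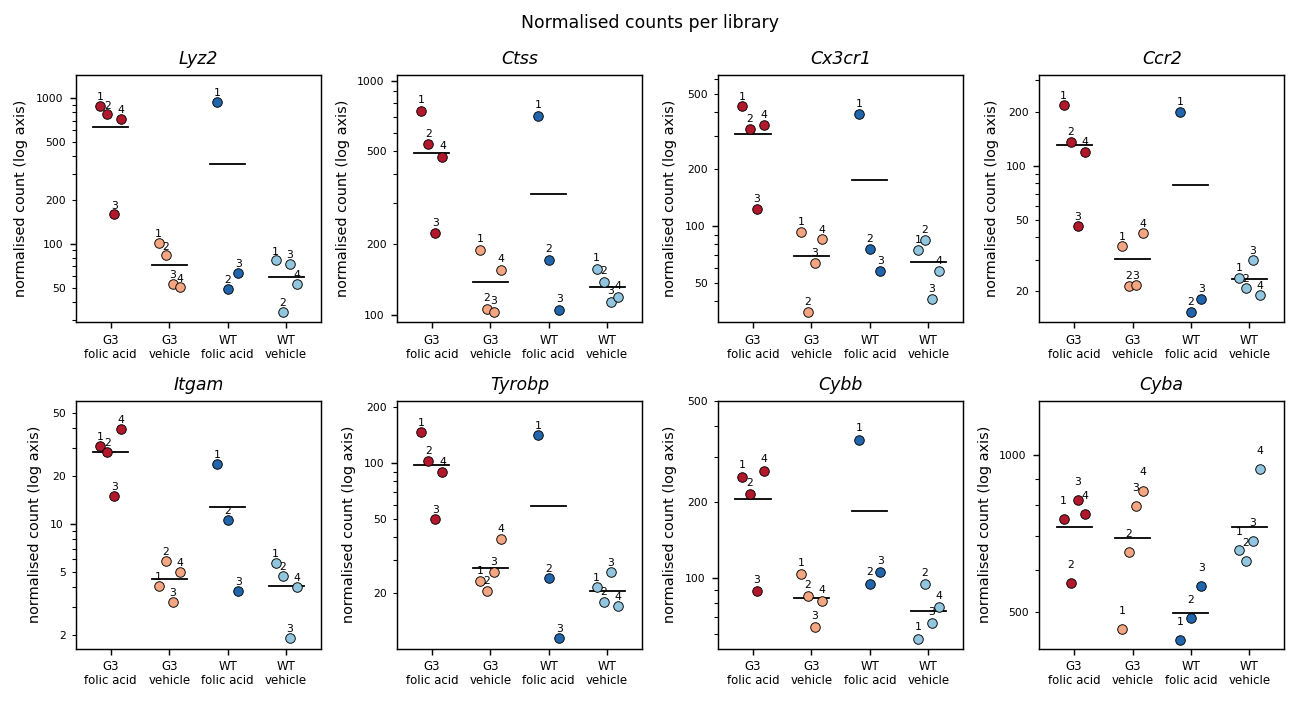
Normalised counts of 8 members are shown on log axes, 1 point per library with its number, and a bar at each group mean. The first WT folic acid library lies with G3 folic acid 1, 2 and 4 in all panels but that of Cyba, and the third G3 folic acid library lies between these and the G3 vehicle points in 6 panels.

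Receptors of resident and tissue-repair macrophages were high in the same libraries as the identity genes where they had reads. Cx3cr1 had 430.3, 326, 123 and 344 in G3 folic acid 1 to 4, against 93.6, 35.2, 63.8 and 85.2 in G3 vehicle 1 to 4. Counts of Cx3cr1 were 394, 75.8 and 58.1 in WT folic acid 1 to 3, against 74.6, 84.4, 41.3 and 57.9 in WT vehicle 1 to 4. The G3 groups did not overlap, and WT folic acid 2 and 3 lay within the vehicle range. Cx3cr1 averaged 4.22-fold higher after folic acid in G3 (log2 2.08, SE 0.50, limma adjusted p = 0.0737).
Mrc1, the mannose receptor CD206 of tissue-repair macrophages, had 142, 116, 46.95 and 132 in G3 folic acid 1 to 4, against 60.001, 30.3, 27.05 and 22.05 in G3 vehicle 1 to 4. Its WT values were 179, 41.3 and 30.5 in WT folic acid 1 to 3, against 32.8, 37.9, 23.03 and 22.98 in WT vehicle 1 to 4. The third G3 folic acid library lay below G3 vehicle 1, and WT folic acid 1 and 2 lay above all WT vehicle libraries. The difference was 3.05-fold in G3 (log2 1.61, SE 0.46, limma adjusted p = 0.119) and log2 1.07 in WT (SE 0.50, adjusted p = 0.208).
Cd163, the haemoglobin scavenger receptor, rested on 5 to 25 reads per group and was not tested. It had 3.63, 3.76, 4.995 and 8.95 in G3 folic acid 1 to 4, against 18.3, 1.95, 3.25 and 2.004 in G3 vehicle 1 to 4. Counts of Cd163 were 5.67, 2.88 and 9.53 in WT folic acid 1 to 3, against 0, 0.948, 2.88 and 0.999 in WT vehicle 1 to 4. Its highest library was G3 vehicle 1, where no other member peaked.

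Genes of monocyte recruitment and activation held the called member, Itgam, which passed the filter on low values through folic acid libraries. Itgam had 30.9, 28.2, 14.98 and 39.4 in G3 folic acid 1 to 4, against 4.07, 5.86, 3.25 and 5.01 in G3 vehicle 1 to 4. WT kidneys had 23.8, 10.6 and 3.81 in WT folic acid 1 to 3, against 5.65, 4.74, 1.92 and 3.996 in WT vehicle 1 to 4. All 4 G3 folic acid libraries were above all G3 vehicle libraries, G3 folic acid 3 included. In WT the first and second folic acid libraries were above the whole vehicle group, and the third was among it. Itgam rose 5.10-fold in G3 (log2 2.35, SE 0.46, limma adjusted p = 0.0417), and edgeR (adjusted p = 0.0288) and DESeq2 (adjusted p = 0.000572) called it too, while its adjusted p was 0.236 with the share of Y-linked RNA as a term and 0.125 without the 2 libraries of mixed sex RNA. In WT the difference was log2 1.197 (SE 0.50, limma adjusted p = 0.161), and the difference of effects was 1.15 (SE 0.68, adjusted p = 0.421).
Ccr2 had 217, 136, 45.95 and 119.9 in G3 folic acid 1 to 4, against 35.6, 21.5, 21.6 and 42.1 in G3 vehicle 1 to 4. The WT values were 199.7, 15.4 and 18.1 in WT folic acid 1 to 3, against 23.7, 20.9, 29.7 and 18.98 in WT vehicle 1 to 4. The G3 groups were apart by a small margin, and WT folic acid 2 and 3 lay below every WT vehicle library. Ccr2 averaged 3.81-fold higher after folic acid in G3 (log2 1.93, SE 0.60, limma adjusted p = 0.15). G3 exceeded WT after folic acid by log2 1.52 (adjusted p = 0.199), or 2.69 without WT folic acid 1 (adjusted p = 0.00789).
Itgax, the CD11c integrin chain of dendritic cells and some macrophages, had 64.5, 31.9, 20.98 and 42.9 in G3 folic acid 1 to 4, against 12.2, 14.7, 9.74 and 15.03 in G3 vehicle 1 to 4. Counts of Itgax were 46.5, 14.4 and 3.81 in WT folic acid 1 to 3, against 12.4, 8.53, 9.59 and 21.98 in WT vehicle 1 to 4. Folic acid and vehicle libraries of G3 did not overlap, and WT folic acid 3 was below the vehicle range. Itgax averaged 2.77-fold higher after folic acid in G3 (log2 1.47, SE 0.52, limma adjusted p = 0.204).
Clec7a, dectin-1, a receptor for fungal glucans, had 104, 49.8, 33.97 and 85.9 in G3 folic acid 1 to 4, against 23.4, 3.91, 9.74 and 7.02 in G3 vehicle 1 to 4. WT kidneys had 98.7, 13.4 and 10.5 in WT folic acid 1 to 3, against 7.92, 7.58, 15.4 and 9.99 in WT vehicle 1 to 4. Again the G3 groups were apart, and WT folic acid 2 and 3 were inside the vehicle range. Clec7a averaged 6.303-fold higher after folic acid in G3 (log2 2.66, SE 0.59, limma adjusted p = 0.0682).
Cd14, the co-receptor for bacterial lipopolysaccharide, had 37.2, 33.8, 5.99 and 30.4 in G3 folic acid 1 to 4, against 6.102, 5.86, 8.66 and 6.01 in G3 vehicle 1 to 4. Counts of Cd14 were 22.7, 3.84 and 4.77 in WT folic acid 1 to 3, against 3.39, 2.84, 16.3 and 1.998 in WT vehicle 1 to 4. G3 folic acid 3 lay among the G3 vehicle libraries, and WT vehicle 3 exceeded WT folic acid 2 and 3. Cd14 differed by log2 1.62 in G3 (SE 0.63, limma adjusted p = 0.254). Cd86, a co-stimulatory ligand for T cells, had 1.998 to 12.7 in G3 folic acid, 0 to 7.82 in G3 vehicle, 3.81 to 6.81 in WT folic acid and 1.896 to 5.76 in WT vehicle libraries and was not tested.

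Of the TYROBP signalling and lipid-associated genes, Trem2 and Gpnmb had few reads. Tyrobp, the adaptor of TREM2 and other myeloid receptors, had 147, 103, 49.95 and 90.4 in G3 folic acid 1 to 4, against 23.4, 20.5, 25.97 and 39.1 in G3 vehicle 1 to 4. Counts of Tyrobp were 142, 23.995 and 11.4 in WT folic acid 1 to 3, against 21.5, 18.01, 25.9 and 16.98 in WT vehicle 1 to 4. The G3 groups did not overlap, and WT folic acid 3 was lower than every WT vehicle library. Tyrobp averaged 3.36-fold higher after folic acid in G3 (log2 1.75, SE 0.52, limma adjusted p = 0.13).
Trem2, the lipid receptor that signals through it, had 18.2, 9.39, 1.998 and 21.5 in G3 folic acid 1 to 4, against 4.07, 0, 3.25 and 3.01 in G3 vehicle 1 to 4. WT kidneys had 23.8, 0 and 0.953 in WT folic acid 1 to 3, against 0, 0, 0 and 0.999 in WT vehicle 1 to 4. G3 folic acid 1, 2 and 4 and WT folic acid 1 were the highest, and the 4 WT vehicle libraries held 1 read in all, so no fold is given against them. In G3 the difference was log2 1.82 (SE 0.91, limma adjusted p = 0.396).
Gpnmb, a glycoprotein of lipid-laden macrophages, had 11.8, 8.46, 0.999 and 24.2 in G3 folic acid 1 to 4, against 5.08, 0, 4.33 and 1.002 in G3 vehicle 1 to 4. Its WT values were 62.4, 2.88 and 0.953 in WT folic acid 1 to 3, against 0, 3.79, 1.92 and 2.997 in WT vehicle 1 to 4. WT folic acid 1 held more than any other library, and G3 folic acid 3 was as low as the lower vehicle libraries. The differences were log2 1.64 in G3 (SE 0.9997, limma adjusted p = 0.506) and 1.52 in WT (SE 1.08, adjusted p = 0.421).
Lgals3, galectin-3, a sugar-binding protein made by macrophages and also by tubular cells, had 732, 632, 308 and 511 in G3 folic acid 1 to 4, against 319, 429.9, 343 and 334 in G3 vehicle 1 to 4. Counts of Lgals3 were 528, 246 and 228 in WT folic acid 1 to 3, against 342, 282, 307 and 231 in WT vehicle 1 to 4. The third G3 folic acid library lay below every G3 vehicle library, and WT folic acid 3 below every WT vehicle library. The differences were log2 0.55 in G3 (SE 0.26, limma adjusted p = 0.36) and 0.11 in WT (SE 0.28, adjusted p = 0.866).

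The NADPH oxidase members differed among themselves. Cybb, the catalytic gp91phox subunit, had 251, 214, 88.9 and 266 in G3 folic acid 1 to 4, against 104, 84.997, 63.8 and 81.2 in G3 vehicle 1 to 4. WT kidneys had 353, 95.02 and 106 in WT folic acid 1 to 3, against 57.7, 94.8, 66.2 and 76.9 in WT vehicle 1 to 4. G3 folic acid 3 lay within the vehicle range, and the WT groups were apart only by 95.0 in WT folic acid 2 against 94.8 in WT vehicle 2. The differences were log2 1.19 in G3 (SE 0.37, limma adjusted p = 0.148) and 1.061 in WT (SE 0.40, adjusted p = 0.123).
Cyba, the p22phox subunit, which many cells other than phagocytes also make, had 752, 567, 818 and 769 in G3 folic acid 1 to 4, against 463, 651, 797 and 854 in G3 vehicle 1 to 4. Counts of Cyba were 441, 487 and 560.5 in WT folic acid 1 to 3, against 656, 626, 684 and 940.1 in WT vehicle 1 to 4. The G3 groups overlapped, and the WT groups did not, with folic acid the lower. The WT difference was log2 -0.54 (SE 0.20, limma adjusted p = 0.115), and the G3 minus WT difference after folic acid was 0.54 (SE 0.20, adjusted p = 0.138).
Ncf4, the cytosolic p40phox subunit, had 10.9, 12.2, 0 and 7.16 in G3 folic acid 1 to 4, against 2.03, 0.977, 1.08 and 2.004 in G3 vehicle 1 to 4. Its WT values were 10.2, 4.799 and 4.77 in WT folic acid 1 to 3, against 4.52, 1.896, 3.84 and 4.995 in WT vehicle 1 to 4. The third G3 folic acid library had no read, and the other 3 G3 folic acid libraries lay above all G3 vehicle libraries. Ncf4 differed by log2 1.27 in G3 (SE 0.68, limma adjusted p = 0.436), and between genotypes after vehicle Ncf4 had the lowest estimate of the 33, log2 -0.91 (SE 0.68, adjusted p = 0.526).

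Genes carried by all leukocytes had smaller differences than the identity genes, with a G3 median of log2 1.22 over 7 tested members against 1.67 over the 12 identity genes; the gap between these groups was not tested. Ptprc, the common leukocyte antigen CD45, had 338, 266, 124 and 239.8 in G3 folic acid 1 to 4, against 147, 72.3, 78.98 and 104 in G3 vehicle 1 to 4. Counts of Ptprc were 330.1, 104 and 100.1 in WT folic acid 1 to 3, against 113, 146, 94.02 and 92.9 in WT vehicle 1 to 4. G3 folic acid 3 lay within the vehicle range and WT folic acid 2 and 3 did too. Ptprc averaged 2.33-fold higher after folic acid in G3 (log2 1.22, SE 0.35, limma adjusted p = 0.119).
Coro1a, coronin-1A, an actin regulator of leukocytes, had 38.1, 15.03, 10.99 and 24.2 in G3 folic acid 1 to 4, against 10.2, 11.7, 7.57 and 4.01 in G3 vehicle 1 to 4. WT kidneys had 35.2, 4.799 and 5.72 in WT folic acid 1 to 3, against 3.39, 10.4, 13.4 and 9.99 in WT vehicle 1 to 4. The third G3 folic acid library was inside the vehicle range, and so were WT folic acid 2 and 3. Coro1a differed by log2 1.24 in G3 (SE 0.56, limma adjusted p = 0.336).
Itgb2, the integrin beta chain that pairs with the products of Itgam and Itgax, had 17.2, 20.7, 8.99 and 5.37 in G3 folic acid 1 to 4, against 7.12, 5.86, 4.33 and 8.02 in G3 vehicle 1 to 4. Its WT counts were 23.8, 1.92 and 3.81 in WT folic acid 1 to 3, against 7.92, 4.74, 4.797 and 10.99 in WT vehicle 1 to 4. Unlike most members its lowest G3 folic acid library was the fourth, and WT folic acid 2 and 3 lay below all WT vehicle libraries. The differences were log2 0.81 in G3 (SE 0.57, limma adjusted p = 0.581) and -0.13 in WT (SE 0.62, adjusted p = 0.925).
The remaining members are Laptm5 (a lysosomal membrane protein), Cd53 (a tetraspanin), Cd52 (a small surface glycoprotein), Lcp1 (L-plastin, an actin bundler) and Cd48 (a SLAM family ligand). G3 differences were log2 1.22 for Laptm5, 0.91 for Cd53, 1.38 for Cd52 and 0.81 for Lcp1, with limma adjusted p from 0.119 (Cd52) to 0.602 (Cd53). Lcp1 was the only one of these whose G3 groups did not overlap, with 114 to 248 in folic acid libraries, against 94.1 to 113 in vehicle libraries. Cd48 had 0 to 6.35 in G3 folic acid and 0 to 0.959 in WT vehicle libraries and was not tested.

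Ratios of members were also taken within each library. The ratio of Lyz2 to Ptprc counts was 2.61, 2.91, 1.28 and 3.01 in G3 folic acid 1 to 4, against 0.690, 1.15, 0.671 and 0.481 in G3 vehicle 1 to 4. It was 2.86, 0.472 and 0.629 in WT folic acid 1 to 3, against 0.680, 0.234, 0.776 and 0.570 in WT vehicle 1 to 4. All 4 G3 folic acid libraries, the third included, thus exceeded all G3 vehicle libraries, and WT folic acid 1 alone exceeded the WT vehicle range. The ratio of Mrc1 to Ptprc counts overlapped in G3, at 0.379 to 0.552 in G3 folic acid, against 0.212 to 0.419 in G3 vehicle. In WT it did not overlap, at 0.305 to 0.543 in WT folic acid, against 0.245 to 0.290 in WT vehicle. The ratio of Ccr2 to Cx3cr1 counts did not separate the groups: it was 0.348 to 0.504 in G3 folic acid, 0.339 to 0.611 in G3 vehicle, 0.203 to 0.507 in WT folic acid and 0.247 to 0.721 in WT vehicle. These ratios were chosen after the values were seen and are given without a test.

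Other genes of the same pathways, from lists outside the 36, were read in the same fit. Some of them, such as Fcgr1, Msr1, Clec4n, Cd33 and Tlr2, reached 10 in no vehicle library. These passed the filter on low values through folic acid libraries, which can raise the share of higher genes among those tested. Of 14 tested genes of macrophage receptors and phagocytosis, 1 was called higher in G3 folic acid than in G3 vehicle (0.157% of genes) and 11 were higher at an unadjusted p under 0.05 (7.47% of genes). The call was Fcgr1, the high-affinity receptor for immunoglobulin G, with 22.7, 36.6, 18.98 and 33.996 in G3 folic acid 1 to 4, against 0, 0, 0 and 0 in G3 vehicle 1 to 4. WT kidneys had 21.6, 4.799 and 3.81 in WT folic acid 1 to 3, against 4.52, 3.79, 0.959 and 6.99 in WT vehicle 1 to 4. Fcgr1 was at least 9.18-fold higher in G3 folic acid than in G3 vehicle, taking a floor of 3 reads per G3 vehicle library (limma adjusted p = 0.000604). With the series of title numbers described below as a term, the limma adjusted p was 0.237, and 0 of all genes were called. Fcgr1 was also lower in G3 vehicle than in WT vehicle, by at least 1.33-fold on the same floor (adjusted p = 0.0371), and its folic acid effect differed between genotypes (adjusted p = 0.0123). Neither of these calls held with the Y-linked share (adjusted p = 0.803 and 0.9997) or the title series as a term (0.719 and 0.282).
Complement C1q, made by macrophages, had differences within the range of those of the members and did not pass. C1qb had 450.3, 335, 138 and 474 in G3 folic acid 1 to 4, against 84.4, 39.1, 81.1 and 69.2 in G3 vehicle 1 to 4. Counts of C1qb were 563, 67.2 and 83.9 in WT folic acid 1 to 3, against 59.9, 72.04, 45.1 and 47.95 in WT vehicle 1 to 4. Folic acid and vehicle libraries of G3 did not overlap, and WT folic acid 1 was the highest of all libraries. The G3 difference of C1qb was 4.75-fold (log2 2.25, SE 0.52, limma adjusted p = 0.0695), that of C1qa log2 1.65 (adjusted p = 0.0800) and that of C1qc 2.12 (adjusted p = 0.0912).
Of 10 tested genes of resident macrophages 4 were higher and 1 lower at an unadjusted p under 0.05, against 7.47% of all genes higher and 6.37% lower. Of 7 genes of recruited monocytes 3 were higher, and of 8 partners of TYROBP 4 were higher. Of 4 further oxidase subunits 2 were higher, and of 8 myeloid transcription factors 3 were higher and 1 lower. Of 10 integrin and actin genes 3 were higher and 1 lower, and of 11 genes of lipid-laden macrophages 3 were higher. In none of these 7 lists was a gene called in G3 after folic acid by limma. Those of smallest p were Ncf1 (p47phox of the oxidase, log2 1.67, adjusted p = 0.0682), Rac2 (the oxidase GTPase, 1.57, adjusted p = 0.0744), Fn1 (fibronectin, 2.11, adjusted p = 0.0811), Irf8 (a myeloid transcription factor, 1.07, adjusted p = 0.0775) and Nr4a1 (a factor of patrolling monocytes, -2.54, adjusted p = 0.0775).
In WT after folic acid, Fn1 (log2 2.10, limma adjusted p = 0.0457) and Spp1 (osteopontin, 1.502, adjusted p = 0.0157) rose and Selenop (a selenium carrier, -1.26, adjusted p = 0.0447) fell. Without WT folic acid 1 none of these passed, with adjusted p from 0.0734 (Spp1) to 0.215 (Fn1), and none passed with the Y-linked share (0.981 for each) or the title series (0.0783 to 0.17) as a term. The fits with these 2 terms called 1 and 2 of all genes in this comparison, against 741 without them, so hardly any gene could pass there. Between genotypes after vehicle, Cebpa (a myeloid and liver transcription factor, 0.80, adjusted p = 0.0363) and Spp1 (1.25, adjusted p = 0.0267) were higher in G3 and Lpl (lipoprotein lipase, -0.99, adjusted p = 0.013) was lower. None of these 3 passed with the Y-linked share (0.803 to 0.868) or the title series (0.719 to 0.822) as a term. The Y-linked share does not overlap between the vehicle groups, so this term and genotype can hardly be told apart here. All of these genes are also made by cells other than macrophages.

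Markers of some other cells were high in the same libraries as the members. Over 10 T cell genes the summed normalised count was 228, 193, 78.9 and 139 in G3 folic acid 1 to 4, against 120.0, 88.9, 69.2 and 76.2 in G3 vehicle 1 to 4. In WT it was 264, 108 and 107 in WT folic acid 1 to 3, against 97.3, 72.04, 92.1 and 69.9 in WT vehicle 1 to 4. The same 4 libraries were the highest, and G3 folic acid 3 was at vehicle level. Unlike for most members, WT folic acid 2 and 3 also lay above all WT vehicle libraries. Trbc2 of this list was called higher in WT after folic acid (log2 1.22, limma adjusted p = 0.0429), against 2.17% of all genes. It did not pass with the Y-linked share (0.981), the title series (0.157) or the labelled sex (0.154) as a term. Over 7 B and plasma cell genes, most of it Igkc, the sum was 60.9 to 2641 in G3 folic acid, against 168 to 792 in G3 vehicle, and 12475, 644 and 659.6 in WT folic acid 1 to 3, against 362 to 592 in WT vehicle. Igkc alone had 11670.5 in WT folic acid 1.
Summed neutrophil counts were lower after folic acid in both genotypes. Over 6 genes the sum was 55.4 to 107 in G3 folic acid, against 123 to 184 in G3 vehicle, and 81.7 to 169 in WT folic acid, against 186 to 246 in WT vehicle. Not all of the 6 were lower, and Csf3r had 16.3, 13.2, 9.99 and 19.7 in G3 folic acid 1 to 4, against 12.2, 15.6, 11.9 and 19.04 in G3 vehicle 1 to 4, which overlap. S100a9 had 31.8, 15.03, 15.98 and 14.3 in G3 folic acid 1 to 4, against 49.8, 50.8, 41.1 and 40.1 in G3 vehicle 1 to 4. The G3 folic acid libraries were all lower (log2 -1.26, SE 0.30, limma adjusted p = 0.0734). After folic acid S100a9 was lower in G3 than in WT (log2 -1.36, adjusted p = 0.0391, or 0.00656 without WT folic acid 1, 0.171 with the Y-linked share and 0.999 with the title series as a term).
Over 8 dendritic cell genes the sums overlapped, at 122 to 188 in G3 folic acid, against 96.7 to 156 in G3 vehicle, and 126 to 182 in WT folic acid, against 93.9 to 143 in WT vehicle. NK cell genes summed to at most 17.2 and the 1 mast cell gene in the table to at most 6.102 in any library, and none of them was tested.
Tubular injury genes (Havcr1, Lcn2, Krt20, Vcam1, Clu and Sox9) summed to 6049, 4588, 2917 and 6202 in G3 folic acid 1 to 4, against 2013, 2429, 1663 and 2235 in G3 vehicle 1 to 4. In WT they summed to 4406, 2649 and 2571 in WT folic acid 1 to 3, against 1608, 2501, 1533 and 2017 in WT vehicle 1 to 4. The same 4 libraries were again the highest, and the third G3 folic acid library was the lowest of its group. WT folic acid 2 and 3 lay above all WT vehicle libraries here too. Havcr1, the kidney injury marker KIM-1, had 80.8, 58.2, 21.98 and 53.7 in G3 folic acid 1 to 4, against 0, 0, 3.25 and 9.02 in G3 vehicle 1 to 4. Fibroblast and pericyte genes summed to 3328, 2828, 1591 and 2764 in G3 folic acid 1 to 4 and 6125, 867 and 919 in WT folic acid 1 to 3, against at most 1159 in any vehicle library. The part of these cells and of the read share of Gm42418 in the myeloid values was not tested.

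**Figure D4:**
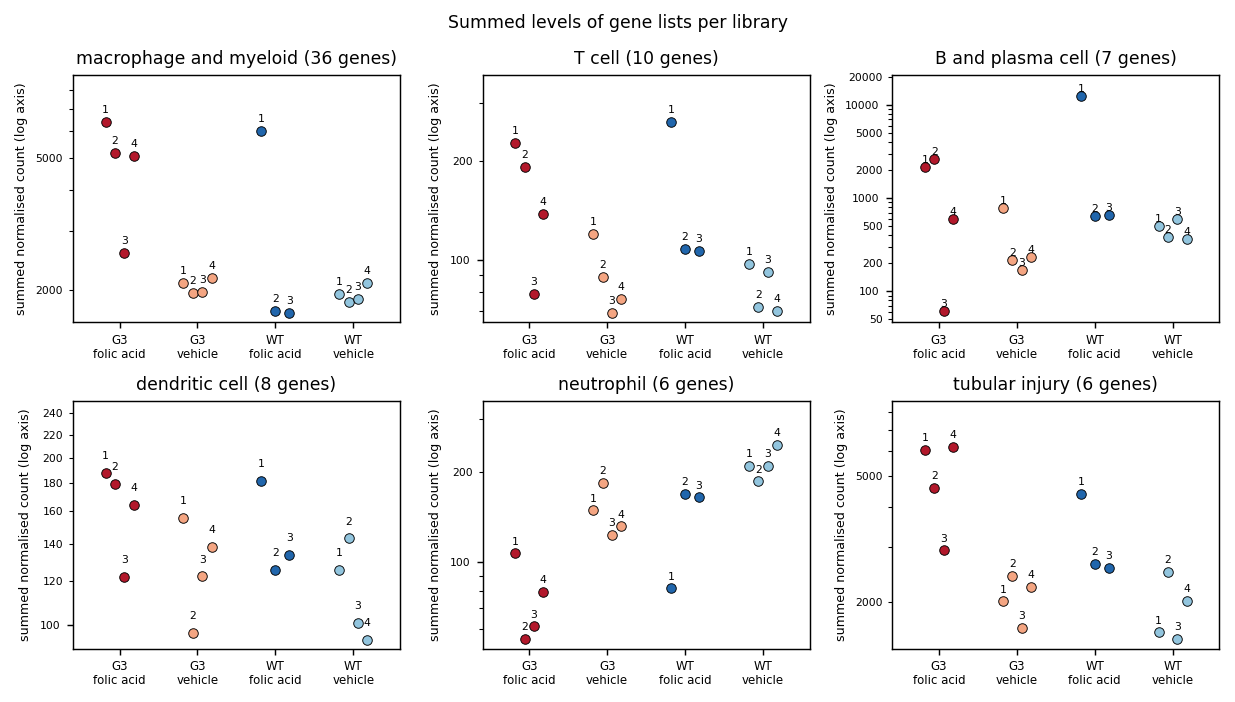
Summed normalised counts are shown on log axes for the 36 members and 5 other gene lists, 1 point per library with its number. G3 folic acid 1, 2 and 4 and WT folic acid 1 are the 4 highest for the members, the T cell genes and the tubular injury genes, and the G3 folic acid libraries are the lowest for neutrophil genes together with WT folic acid 1.

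The numbers in the sample titles were divided by hand into 3 series, which the labels do not call batches. The 4 G3 folic acid libraries share a series with G3 vehicle 4 and WT vehicle 4, G3 vehicle 1 to 3 form another, and the WT libraries other than WT vehicle 4 form the remaining one. Within the shared series, all 4 G3 folic acid libraries exceeded G3 vehicle 4 for 25 of the 33 tested members, against 18.4% of all genes tested. Within the WT series, WT folic acid 1 exceeded WT vehicle 1 to 3 for 32 of 33 members, against 33.8% of all genes tested. WT folic acid 2 and 3 of this series exceeded all WT vehicle libraries, WT vehicle 4 included, for only 10 and 7 of the 36 members. For these libraries the share of all genes was not counted. In the WT series, that is, without WT vehicle 4, the median WT difference was log2 0.76. In that series the title numbers of WT vehicle 1 to 3 and of the folic acid libraries form separate runs. The gap between these runs is wider than those between the series, so title number and treatment cannot be told apart there. With the series as a term the median G3 difference was log2 1.43 and 0 members were called, but 0 of all genes were called too. After folic acid the G3 and WT libraries share no series, so this term and genotype can hardly be told apart there.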

How the data were processed

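RNA was read from transcript 3' ends in 15 whole-kidney libraries, made with a strand-keeping kit from 300 ng of RNA, per the labels' protocols. The protocol gives an RNA quality of 6.3 on average, with a range of 4.7 to 8.0. The submitters' processing notes name GRCm38 as the build, TopHat2 2.0.10 (with Bowtie 1.0.0 and SAMtools 0.1.19), HTSeq 0.6.1, FastQC 0.11.7 and DESeq2. The deposited values are a signal: each library's reads per gene over its own size factor, as the file's name for them and the values show. All values were whole multiples of that step within 0.001, which gave back the reads. The steps are 0.895 to 1.13.

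Genes reaching 10 in 3 libraries (14651) were tested on log2(normalised count + 1) by limma 3.58.1 (R 4.3.3), using a mean-variance trend and 4 group terms. P-values were adjusted by Benjamini-Hochberg over all of them. EdgeR 4.0.16 and DESeq2 1.42.0 were run on the recovered reads. Fold changes on this scale understate those of low genes. The members and lists were chosen with earlier results of these data known. Genes given by library are a panel of 20 set for their roles and those among the largest differences in a comparison, and from other lists the genes called or of smallest p. The procedure was tested on simulated data. Other settings were other covariates, filters, pseudocounts and scalings, library weights, the compared groups only and leaving out each library.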

Additional observations from a re-analysis of the deposited data

Results flagged for a closer look

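In 108 groups of 4 libraries (1 per member and group), 8 held a library far from the other 3. Chance gives about 1 in 20 for continuous, normally spread values. Cd68 was lowest in G3 folic acid 3, at 19.98 normalised counts. Aif1 (42.7) and Cd163 (18.3) were highest in G3 vehicle 1, Lst1 (21.05) in G3 vehicle 4 and Cd14 (8.66) in G3 vehicle 3. In WT vehicle libraries Cd14 was highest in WT vehicle 3 (16.3), Trem2 in WT vehicle 4 (0.999, which is 1 read) and Cd48 in WT vehicle 3 (0.959, also 1 read). A group with reads in only 1 library is always flagged, so the chance rate does not hold for such low counts. Groups of 3 libraries were not examined in this way, so WT folic acid 1 could not appear here.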

How the results depend on the processing

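No paired analysis was possible because the labels give no replicate number shared between groups. Of the members, 1 was called for folic acid in G3. The count was 0 with the labelled sex, the Y-linked share or the title series as a term, where 12, 9 and 0 of all genes were called. It was also 0 with a pseudocount of 0.5, a mean of at least 20 and quantile scaling (32, 28 and 42 of all genes called). Without the 2 libraries of mixed sex RNA it was 0 too, where 11 of all genes were called. It was 13 with only the compared groups, 19 with DESeq2, 22 with library weights, and 16 without WT folic acid 1 with the Y-linked share as a term, where 208, 387, 697 and 129 of all genes were called, against 40. For folic acid in WT, library weights gave 1 call (lower, with 2087 of all genes called) and DESeq2 9 (all higher, with 1257), against 0 (741). For G3 against WT after folic acid, library weights gave 30 calls and a median of log2 1.59, against 0 and 0.90, with 2851 of all genes called, against 337. Library weights gave 13 calls and a median of 1.53 for the difference of effects, against 0 and 0.87, with 1548 of all genes called, against 560. Without WT folic acid 1 and with the Y-linked share, the medians were -0.22 for folic acid in WT, 1.83 between genotypes after folic acid (5 calls) and 1.98 for the difference of effects. The cause was not tested.

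Leaving out 1 library at a time gave 0 to 19 calls for folic acid in G3, 0 to 1 in WT, 0 to 14 between genotypes after folic acid, 0 after vehicle and 0 to 7 for the difference of effects. The upper ends came without WT folic acid 1, except in WT, where the single call came without WT folic acid 3. Without WT folic acid 1, the shares of all genes called higher were 1.77% in G3, 1.86% between genotypes after folic acid and 2.07% for the difference of effects. In WT without WT folic acid 3, 257 of all genes were called. Medians were log2 1.38 to 1.98 in G3, 0.0096 to 1.25 in WT, 0.57 to 1.62 and 0.48 to 1.60 for the 2 comparisons between genotypes that involve folic acid. Members whose groups did not overlap numbered 14 to 31 in G3, 4 to 8 in WT, 1 to 26 between genotypes after folic acid and 1 to 2 after vehicle. Fewer libraries make groups of any gene less likely to overlap, and the share of all genes was not counted for these omissions. Of 4867 values for single genes under other settings, 4423 kept their direction and their side of the threshold, 16 lost a call and 181 gained one. Another 247 changed direction with no call in either fit, and 0 changed direction with a call. Values under about 10 rest on a few reads and carry a large counting error.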

Other observations

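Beyond the myeloid genes, 2 genes of epithelial and cycling cells rose in G3 after folic acid: Clu, the chaperone clusterin of injured tubules (log2 1.13, SE 0.22, limma adjusted p = 0.041), and Cenpf, a centromere protein of dividing cells (log2 1.67, adjusted p = 0.0252). Of the erythroid genes, Alas2, the enzyme that starts haem synthesis (log2 -1.56, adjusted p = 0.0252), and Hba-a2, an alpha globin (log2 -1.53, adjusted p = 0.0377), fell. Summed erythroid counts were 6177 to 22087 in G3 folic acid libraries, against 27153 to 44529 in G3 vehicle libraries. With the title series as a term none of these 4 calls held (adjusted p = 0.99996 for each), and with the Y-linked share Clu did not pass (0.128). The fit with the title series called 0 of all genes in this comparison.

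Selenop, the selenium carrier made by resident macrophages and by other cells, had 3164, 1318, 3421 and 1794 in G3 folic acid 1 to 4, against 780.0, 1137, 1350.2 and 1305 in G3 vehicle 1 to 4. Its WT counts were 988, 784 and 879 in WT folic acid 1 to 3, against 1967, 1083, 3017 and 3038 in WT vehicle 1 to 4. It was higher in G3 than in WT after folic acid (log2 1.35, limma adjusted p = 0.049), and its folic acid effects differed between genotypes by log2 2.26 (adjusted p = 0.0133). Without WT folic acid 1 these adjusted p were 0.0495 and 0.0181, with the Y-linked share as a term 0.44 and 0.9997, and with the title series 0.999 and 0.361.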
